A study of Mus musculus with 15 samples.

Results

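DNA replication licensing genes were taken by symbol from the gene table of 8 embryo libraries, and all 10 of the chosen genes had a row among the 14392 genes in the table. The set held the subunits of the MCM2-7 helicase (Mcm2, Mcm3, Mcm4, Mcm5, Mcm6 and Mcm7), the loading factors Cdc6 and Cdt1, the Cdt1 inhibitor geminin (Gmnn) and the sliding clamp Pcna. RNA-seq by Smart-seq2 was done on 10 embryos per library, with 2 libraries per group, in zygotes and 2-cell embryos of either genotype, WT or cKO. WT embryos came from wild type females, and the females of both genotypes were on a C57BL/6 background. cKO embryos came from Usp16 fl/fl females carrying Gdf9-Cre and lacked the maternal copy of Usp16, while the paternal copy was intact. Usp16 encodes a deubiquitinase of histone H2A lysine-119. Gdf9-Cre acts in oocytes from the primordial follicle stage and recombination left an in-frame deletion, so that Usp16 reads outside the deleted part can still be counted. Fathers of both genotypes were wild type. The females were 21 to 23 days old and superovulated, and the zygotes were collected 28 hours after hCG. Nothing in the labels says that the 2 libraries of a group came from separate females, so p-values measure the spread between pools of embryos, which may be partly technical.

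An origin of replication is licensed when the origin recognition complex, Cdc6 and Cdt1 load the MCM2-7 ring onto DNA, before S phase. Geminin binds Cdt1 and blocks further loading once S phase has begun, and Cdt1 is also destroyed by an E3 ligase that recognizes it on Pcna. Pcna then tethers polymerases to the fork that the MCM2-7 helicase opens. A mouse zygote starts with mRNAs and proteins of this machinery stored in the oocyte, and it transcribes its own genes mostly from the 2-cell stage.

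Usp16 had an FPKM of 184 and 187 in WT zygotes and 16.8 and 22.0 in cKO zygotes, a mean 9.58-fold lower, although limma gave an adjusted p of 0.191. At the 2-cell stage it was at 168 and 183 in WT and 168 and 84.8 in cKO embryos. All 10 oocyte and early embryo markers were above the FPKM floor of 1 in every library. The summed FPKM of 5 markers of the 2-cell embryo was 6.45 to 9.99 in zygotes, 459 to 680 in WT 2-cell embryos and 166 to 178 in cKO 2-cell embryos. Of these markers, 1 was matched as Usp17l5, of a multigene family, and is uncertain. Markers of cumulus and granulosa cells (4 of 10 in the table) summed to 26.6 to 30.8 in zygotes, 6.20 to 14.4 in WT and 4.08 to 4.61 in cKO 2-cell embryos. Those of sperm (4 of 5 in the table) summed to 16.5 to 23.1, 7.28 to 11.4 and 4.00 to 4.97 in the same order, where 4 genes at the floor sum to 4. Both sums were thus lower at the 2-cell stage, but the falls lay mainly in 1 gene of each list. In WT the mean fell from 24.5 to 1.39 for Cyp19a1 and from 16.8 to 1.32 for Prm2. No other marker of these lists had a lower WT mean at the 2-cell stage. Tnfaip6 (4.64), Tnp1 (4.99), Prm1 (2.02) and Foxl2 rose from the floor, Kitl went from 2.38 to 2.96 and Odf1 stayed at the floor. In cKO embryos Kitl and Odf1 were lower as well, while Tnfaip6 and Tnp1 were higher. The part of these markers in the differences below was not tested. Replicate 2 of the cKO 2-cell embryos stood apart in its FPKM sum, at 770989 against 547752 to 593317 in the other libraries. The 2 cKO 2-cell replicates were over 3-fold apart in 1912 genes, against 20 to 199 genes in the other groups. That count does not tell which of the 2 stood apart. Values without replicate 2 are given below for the licensing genes whose call or called difference turned on it. A fit without 1 library leaves 1 library in its group, so its adjusted p holds no spread within that group. The libraries were pools of whole embryos and FPKM is scaled to the mapped reads of each library, so the values do not show amounts of RNA per embryo.

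In zygotes, the licensing genes spanned a wide range of FPKM. Gmnn and Pcna were the highest, at 484 and 535 for Gmnn and 383 and 363 for Pcna in WT zygotes, above at least 98.2% of the genes in those libraries. Cdt1 (48.8 and 30.2), Mcm2 (39.5 and 40.1), Mcm4 (38.9 and 38.9), Mcm7 (26.8 and 21.7) and Mcm6 (29.0 and 18.2) followed, where the range of Cdt1 took in both Mcm2 and Mcm4, and those of Mcm7 and Mcm6 overlapped. Mcm5 (14.6 and 11.5), Mcm3 (8.66 and 7.93) and Cdc6 (5.58 and 5.25) were the lowest. In mm9, the build of the table, GENCODE M1 places Mcm4 at chr16:15623990-15637493 (minus strand), Mcm5 at chr8:77633427-77652338 (plus), Cdc6 at chr11:98769115-98785254 (plus) and Gmnn at chr13:24843714-24853792 (minus). Mcm7 shares exon bases with genes on the opposite strand (321 bases with Ap4m1 and 64 with Cops6, GENCODE M1), and the libraries were not stranded, so these reads cannot be told apart. The annotation also holds 2 pseudogenes of Pcna (Pcna-ps1 and Pcna-ps2), which makes the value of Pcna uncertain.

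**Figure D1:**
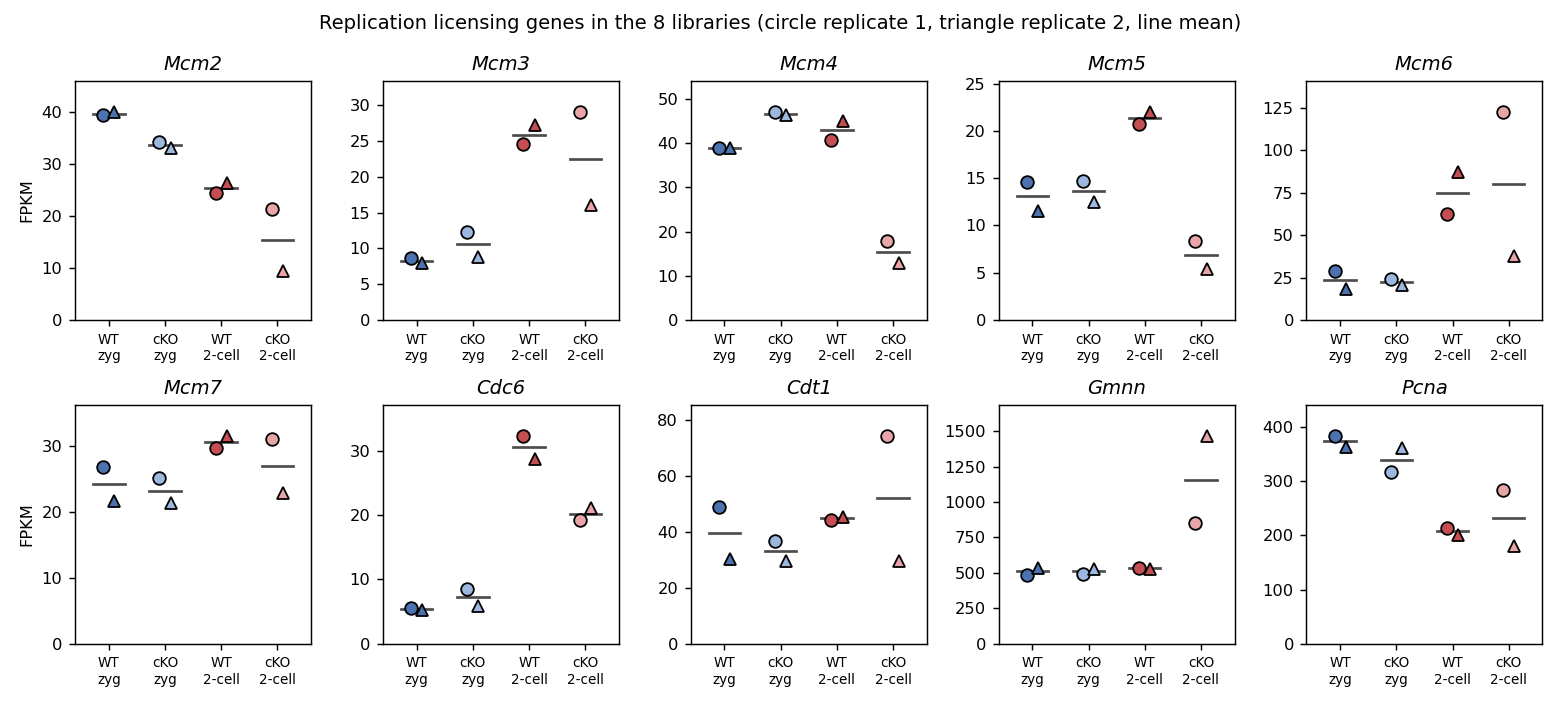
FPKM of each licensing gene (y axis, starting at 0) in WT and cKO zygotes and 2-cell embryos (x axis); circles are replicate 1, triangles replicate 2 and lines the mean of 2 libraries. Mcm4 and Mcm5 in cKO 2-cell embryos lie below all other libraries, Gmnn in cKO 2-cell embryos lies above all others, and Mcm3 and Cdc6 are higher in every 2-cell library than in every zygote library.

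The comparison of cKO with WT zygotes asked whether the stored licensing transcripts differed before the zygote divides. None of the 10 passed limma's test (adjusted p under 0.05 over all genes), against 0.0% of all genes called lower and 0.0208% called higher. The deleted gene Usp16, with a mean 9.58-fold lower, did not pass it either (adjusted p = 0.191 by limma). The lack of calls therefore does not show that levels were equal. At an unadjusted p under 0.05, limma had 324 genes higher and 84 lower in the whole table, and none of the licensing genes was among them. The log2 differences of the members lay between -0.23 (Mcm2, SE 0.36) and 0.34 (Cdc6, SE 0.23), with a median of -0.02 against 0.00 over all genes. Mcm4 was at 47.0 and 46.4 in cKO zygotes and Gmnn at 493 and 527. No member was over 3-fold apart between the group means, against 0.0486% of genes lower and 0.104% higher by that rule. The libraries did not overlap for 3 higher and 2 lower members, against 15.8% and 10.2% of all genes.

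From the zygote to the 2-cell stage in WT embryos, the helicase subunits did not move as a block. Mcm3 was at 8.66 and 7.93 in WT zygotes and at 24.6 and 27.2 in WT 2-cell embryos. Every 2-cell library was thus above every zygote library, a 3.12-fold higher mean and a log2 difference of 1.53 (SE 0.32, adjusted p = 0.00861 by limma). Mcm6 was at 29.0 and 18.2 in WT zygotes and 62.6 and 87.1 in WT 2-cell embryos, and its groups did not overlap either, with a mean 3.17-fold higher. Its log2 difference of 1.64 (SE 0.56) missed the threshold with an adjusted p of 0.0503 by limma. Mcm5 (14.6 and 11.5 against 20.7 and 22.0, log2 difference 0.67) and Mcm7 (26.8 and 21.7 against 29.7 and 31.6, log2 difference 0.33) were also not past the test. Without cKO 2-cell replicate 2, which enters the shared spread, the adjusted p was 0.0104 for Mcm6 and 0.0242 for Mcm5.

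Mcm2, the subunit whose N-terminal tail binds histones, was at 39.5 and 40.1 in WT zygotes and 24.6 and 26.5 in WT 2-cell embryos. The zygote libraries were the higher ones without overlap, and the log2 difference was -0.62 (SE 0.36, adjusted p = 0.201 by limma). Leaving out either cKO 2-cell library lowered the SE to 0.09, and the adjusted p was then 0.00475 without replicate 1 and 0.00463 without replicate 2. Mcm4 was at 38.9 and 38.9 against 40.8 and 45.0, a log2 difference of 0.14 (adjusted p = 0.614 by limma).

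Cdc6, the ATPase that brings Cdt1 and the helicase to the origin recognition complex, was the licensing gene with the largest rise. It was at 5.58 and 5.25 in WT zygotes and at 32.3 and 28.8 in WT 2-cell embryos. Both 2-cell libraries were far above both zygote libraries, 5.64-fold in the mean, with a log2 difference of 2.30 (SE 0.23, adjusted p = 5.37e-04 by limma). Its partner Cdt1 had 48.8 and 30.2 in WT zygotes and 44.4 and 45.2 in WT 2-cell embryos, values that overlapped. Gmnn was at 484 and 535 against 537 and 529, also overlapping. Pcna fell from 383 and 363 to 214 and 200, with a log2 difference of -0.85 (SE 0.26, adjusted p = 0.0355 by limma).

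By limma, 2 of the 10 licensing genes rose between the WT stages and 1 fell, against 34.2% of all genes called higher and 15.5% called lower. By the rule of means over 3-fold apart, Mcm3, Mcm6 and Cdc6 were higher and none was lower, against 26.0% and 8.78% of all genes. That count of 3 was 1 without WT zygote replicate 2 or without WT 2-cell replicate 2. Libraries of the stages did not overlap for 6 higher and 2 lower members, against 49.4% and 26.4% of all genes. The median log2 difference of the licensing genes was 0.27, and that of all genes 0.27. These shares lie near the background. The call of Cdc6 remained in all 20 alternative settings. Mcm3 lost its call without WT zygote replicate 2 (adjusted p = 0.0541), without WT 2-cell replicate 1 (0.0509) and without WT 2-cell replicate 2 (0.0633), and Pcna lost it without any 1 of the 6 libraries other than the cKO 2-cell pair (adjusted p from 0.0700 to 0.134).

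The genotype comparison at the 2-cell stage addressed the embryos in which transcription of the zygotic genome is under way. Mcm4, a subunit of the MCM4/6/7 core that carries much of the helicase activity, was at 40.8 and 45.0 in WT 2-cell embryos and 17.8 and 12.9 in cKO 2-cell embryos. Both cKO libraries were below both WT libraries, 2.80-fold lower in the mean, and the log2 difference was -1.44 (SE 0.21, adjusted p = 0.00531 by limma). Mcm5, which with Mcm2 forms the gate of the ring, was at 20.7 and 22.0 in WT and 8.31 and 5.35 in cKO embryos. Again the groups did not overlap, with a mean 3.12-fold lower and a log2 difference of -1.54 (SE 0.26, adjusted p = 0.00890 by limma). Without cKO 2-cell replicate 2, which stood apart in its FPKM sum, the log2 difference was -1.22 for Mcm4 and -1.26 for Mcm5. Without replicate 1 it was -1.66 for Mcm4 and -1.81 for Mcm5. The SE rests on a spread shared by the 4 groups. The cKO 2-cell replicates differed most, by a median log2 difference of 0.45 against 0.11 to 0.24 in the other groups. With a spread per group Mcm4 kept its call and Mcm5 lost it, and 120 genes of the table were higher and 854 lower. With the 4 libraries of this comparison alone, no gene of the table passed the test. Over all alternatives the highest adjusted p was 0.0797 for Mcm4 and 0.114 for Mcm5 by limma.

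The other subunits did not pass the test at the 2-cell stage. Mcm2 was at 24.6 and 26.5 in WT and 21.4 and 9.38 in cKO embryos. Both cKO libraries were lower, with replicate 2 alone far below. The log2 difference of -0.80 (adjusted p = 0.144 by limma) was -0.24 without replicate 2 and -1.35 without replicate 1. Mcm6 was at 62.6 and 87.1 in WT embryos and 122 and 37.6 in cKO embryos, so that 1 cKO library lay above and the other below both WT libraries. Mcm3 (24.6 and 27.2 against 29.0 and 16.0) and Mcm7 (29.7 and 31.6 against 31.1 and 22.8) overlapped between genotypes.

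Among the regulators, Gmnn was the one that rose. It was at 537 and 529 in WT 2-cell embryos and at 850 and 1467 in cKO 2-cell embryos, above all 6 other libraries. The log2 difference was 1.07 (SE 0.30, adjusted p = 0.0388 by limma). It was 0.67 without cKO 2-cell replicate 2 and 1.46 without replicate 1. With a spread per group Gmnn did not pass the test. The call was lost when any 1 of the WT zygote, cKO zygote or WT 2-cell libraries was left out (adjusted p from 0.0758 to 0.147, log2 difference 1.06 to 1.08). Cdt1, the target of geminin, was at 44.4 and 45.2 in WT and at 74.3 and 29.7 in cKO embryos. Its cKO libraries lay on either side of the WT pair. Cdc6 was at 32.3 and 28.8 in WT and 19.3 and 21.1 in cKO embryos, lower without overlap, with a log2 difference of -0.57 (SE 0.23) and an adjusted p of 0.113. Sum scaling gave -0.81 (adjusted p = 0.0415) and median-ratio scaling -0.11 (adjusted p = 0.805). Pcna was at 214 and 200 against 284 and 180, which overlapped.

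Of the 10 licensing genes, 2 were lower and 1 was higher in cKO than in WT 2-cell embryos, against 24.6% of all genes called lower and 6.16% called higher by limma. Mcm5 was the single member over 3-fold apart and it was lower, against 13.5% of all genes lower and 2.84% higher by that rule. Without cKO 2-cell replicate 2 that count was 0, and without replicate 1 it was 2. Libraries of the genotypes did not overlap for 1 higher and 4 lower members, against 14.0% and 43.4% of all genes. The median log2 difference was -0.22 for the licensing genes and -0.30 for all genes. With libraries scaled by median ratios the median of all genes was 0.00 and the split of calls over the table moved from 887 higher and 3538 lower to 1437 higher and 1747 lower. Relative to the median of all genes, Mcm4 was lower by a log2 difference of -1.15 and Mcm5 by -1.24, Gmnn was higher by 1.36 and Mcm3 was at 0.05. Mcm4 and Mcm5 were lower past the test under all 3 other scalings (median ratios, sums and quantiles), whereas Gmnn, higher in all 3, missed the threshold with quantile normalization (log2 difference 0.41, adjusted p = 0.218). In those scalings the differences of Mcm3, Mcm6, Mcm7, Cdt1 and Pcna had no constant sign.

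**Figure D2:**
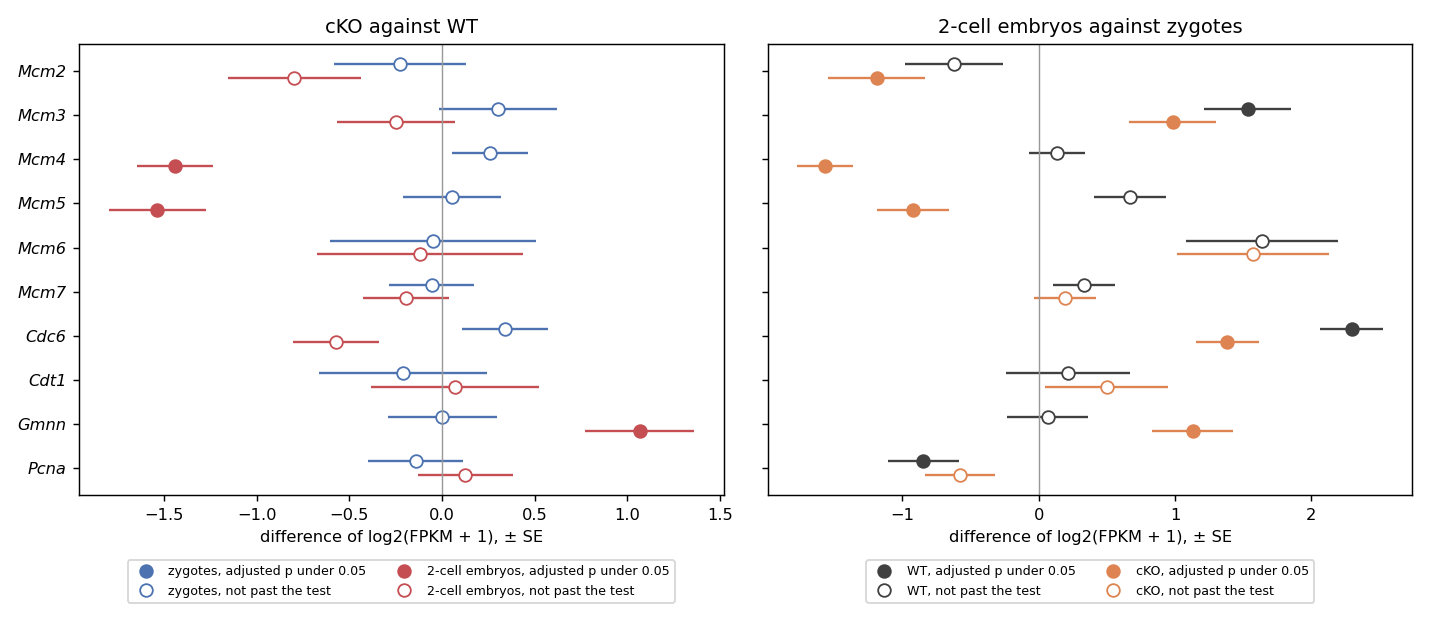
Difference of log2(FPKM + 1) with its SE (x axis) for each licensing gene (y axis), for cKO against WT at each stage on the left and for 2-cell embryos against zygotes in each genotype on the right; filled points have an adjusted p under 0.05 by limma. On the left, Mcm4 (-1.44), Mcm5 (-1.54) and Gmnn (1.07) at the 2-cell stage are filled and no zygote point is.

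Within the cKO embryos, Mcm4 went from 47.0 and 46.4 in zygotes to 17.8 and 12.9 at the 2-cell stage (log2 difference -1.56, SE 0.21, adjusted p = 0.00116 by limma). Mcm2 fell from 34.3 and 33.2 to 21.4 and 9.38 (log2 difference -1.19, adjusted p = 0.0317) and Mcm5 from 14.7 and 12.4 to 8.31 and 5.35 (log2 difference -0.92, adjusted p = 0.0265). Mcm3 rose from 12.3 and 8.88 to 29.0 and 16.0 (log2 difference 0.98, adjusted p = 0.0419), Cdc6 from 8.55 and 5.89 to 19.3 and 21.1 (1.38, adjusted p = 0.00310) and Gmnn from 493 and 527 to 850 and 1467 (1.13, adjusted p = 0.0189). Mcm6 went from 24.1 and 20.4 to 122 and 37.6, with a log2 difference of 1.57 (adjusted p = 0.0557). It was 2.41 without cKO 2-cell replicate 2 and 0.73 without replicate 1. Without replicate 2 the log2 difference of Mcm2 was -0.63 and that of Gmnn 0.74. Without replicate 1 they were -1.74 and 1.52. Cdt1 was at 0.50 (adjusted p = 0.41 by limma) with all libraries, at 1.14 without replicate 2 and at -0.15 without replicate 1. Thus 3 members fell and 3 rose, against 27.1% and 24.6% of all genes. This comparison and the genotype comparison share the cKO 2-cell libraries. The adjusted p-values without cKO 2-cell replicate 2 hold no spread within that group. Leaving out 1 library left Mcm4 and Cdc6 called each time, and ended the call of Mcm5 without cKO 2-cell replicate 2 (adjusted p = 0.0503). Leave-outs of zygote or WT 2-cell libraries also ended calls of Mcm2 (adjusted p from 0.0637 to 0.133), Mcm3 (0.0765 to 0.209), Mcm5 (0.0562 to 0.141) and Gmnn (0.0537 to 0.107), and Mcm3 was at 0.0901 without cKO 2-cell replicate 1.

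The genotype difference itself differed between the stages for Mcm4 (interaction -1.70 on the log2 scale, SE 0.29, adjusted p = 0.0224 by limma) and Mcm5 (-1.59, SE 0.37, adjusted p = 0.0462). For no member was the interaction called in the higher direction, against 10.2% of all genes lower and 1.58% higher. The median interaction was -0.34 for the licensing genes and -0.34 for all genes. Leaving out any 1 zygote library ended both calls (log2 interaction -1.69 to -1.71 and adjusted p from 0.0887 to 0.110 for Mcm4, and -1.43 to -1.75 and from 0.112 to 0.177 for Mcm5). In these fits 0 genes of the whole table were called higher and 1 or 2 lower, against 227 and 1474 with all libraries, and at an unadjusted p under 0.05 limma had 463 to 622 higher and 2530 to 2950 lower. Mcm5 also lost its call without WT 2-cell replicate 1 (0.0879) or replicate 2 (0.0985).

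The share of each subunit in the Mcm2 to Mcm7 sum does not change when a library is multiplied by a constant, and was computed after the values above had been seen. The sum was 158 and 138 FPKM in WT zygotes, 158 and 143 in cKO zygotes, 203 and 239 in WT 2-cell embryos and 230 and 104 in cKO 2-cell embryos. Mcm2 was the highest subunit in WT zygotes, though close to Mcm4 (39.5 and 40.1 against 38.9 and 38.9), and Mcm4 was in cKO zygotes. Neither passed the test between genotypes in zygotes. In all 4 zygote libraries Mcm3 was the lowest. In all 4 of the 2-cell libraries Mcm6 was the highest and Mcm5 the lowest.

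Mcm6 took 18.4% and 13.2% of the sum in WT zygotes, 15.3% and 14.3% in cKO zygotes, 30.8% and 36.4% in WT 2-cell embryos and 53.2% and 36.1% in cKO 2-cell embryos. Mcm4 took 24.7% and 28.1% in WT zygotes, 29.8% and 32.5% in cKO zygotes, 20.1% and 18.8% in WT 2-cell embryos and 7.74% and 12.4% in cKO 2-cell embryos. The cKO 2-cell libraries thus had the lowest Mcm4 shares of all 8, whereas 1 of their Mcm6 shares lay between those of the WT pair. The ratio of the highest to the lowest subunit was 3.02 and 3.96 in WT 2-cell embryos and 14.7 and 7.02 in cKO 2-cell embryos, against 3.84 to 5.23 in the 4 zygote libraries. With 2 libraries against 2, the exact two-sided permutation test cannot go below 0.333, the value found for the Mcm4 share between genotypes at the 2-cell stage.

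**Figure D3:**
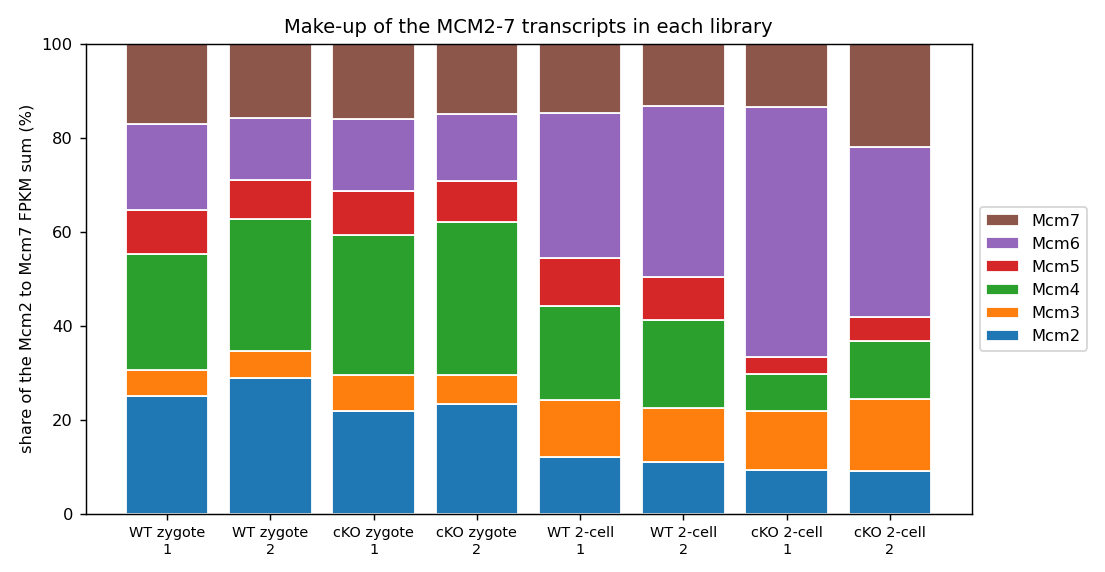
Share of the Mcm2 to Mcm7 FPKM sum held by each subunit (y axis, percent, stacked to 100) in each of the 8 libraries (x axis). Mcm6 takes 30.8% to 53.2% in 2-cell libraries against 13.2% to 18.4% in zygotes, and Mcm4 takes 7.74% and 12.4% in the cKO 2-cell libraries.

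The ratio of Gmnn to Cdt1, inhibitor to target, was 9.92 and 17.7 in WT zygotes, 13.4 and 17.7 in cKO zygotes, 12.1 and 11.7 in WT 2-cell embryos and 11.4 and 49.4 in cKO 2-cell embryos. Only cKO 2-cell replicate 2 was outside the range of the other libraries, and replicate 1 of the same group lay just below the WT pair (exact two-sided permutation p = 1.0).

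The E2F family of transcription factors is known to control many licensing genes as cells enter S phase, so the promoters of the members were searched. Windows from 250 bases before to 50 bases after the start came from RefSeq (GRCm38.p6) and matched 8 of the 10 members, all except Mcm4 and Gmnn. The words searched on both strands were TTTCCCGC, TTTCGCGC, TTTGCCGC and TTTGGCGC, and CCAAT, the word bound by NF-Y. At least 1 E2F word was in the windows of 6 of the 8 members (Mcm3, Mcm5, Mcm6, Mcm7, Cdc6 and Cdt1) and in neither that of Mcm2 nor that of Pcna. An E2F word was in 2.26% of all 32851 windows, and among genes of the expression table with a window 4.32% had one. Among the other replication genes described below, 18 of the 50 with a window had one (36.0%). CCAAT was in the windows of 6 of the 8, all except Cdc6 and Cdt1, and in 37.4% of all windows. Among genes with a window, 43.6% of those in the expression table and 52.0% of the other replication genes had it.

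The stretches below show the words in members that rose between WT stages (Cdc6, Mcm3), that were lower in cKO 2-cell embryos (Mcm5) or whose share of the sum is given above (Mcm6), with Mcm7 and Cdt1 for the remaining E2F words and Pcna, which fell, for contrast. Sequences run 5′ to 3′ on the strand of the gene, and capitals mark E2F words and CCAAT in either orientation. The stretches of Mcm6 and Mcm5 are the 170 bases before the RefSeq start, and the others are 30 bases around a word.
Mcm6: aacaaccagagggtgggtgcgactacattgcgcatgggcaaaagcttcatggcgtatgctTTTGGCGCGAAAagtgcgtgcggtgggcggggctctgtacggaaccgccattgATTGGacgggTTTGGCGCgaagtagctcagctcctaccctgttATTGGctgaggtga
Mcm5: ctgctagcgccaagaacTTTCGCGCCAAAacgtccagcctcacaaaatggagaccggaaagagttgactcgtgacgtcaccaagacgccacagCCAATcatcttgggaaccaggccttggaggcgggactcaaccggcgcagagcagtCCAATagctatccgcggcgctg
Cdc6: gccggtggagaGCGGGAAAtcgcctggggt
Mcm3: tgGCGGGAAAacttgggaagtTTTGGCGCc
Mcm7: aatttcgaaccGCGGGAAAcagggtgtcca
Cdt1: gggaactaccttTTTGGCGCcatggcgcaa
Pcna: ccacgggtacgATTGGtccttgaggagagg
In GRCm38.p6 these lie at chr1:128359706-128359875 (minus strand) for Mcm6, chr8:75109339-75109508 (plus) for Mcm5, chr11:98908002-98908031 (plus) for Cdc6, chr1:20820266-20820295 (minus) for Mcm3, chr5:138172030-138172059 (minus) for Mcm7, chr8:122568035-122568064 (plus) for Cdt1 and chr2:132253249-132253278 (minus) for Pcna. In mm9, the build of the expression table, the Mcm6 stretch matched once at chr1:130256283-130256452 and that of Mcm5 once at chr8:77633238-77633407, and neither held an exon base of GENCODE M1. Of the 30 bases shown, GENCODE M1 places all 30 in exons for Mcm7, Cdt1 and Pcna, 13 for Mcm3 and 0 for Cdc6. In both genes 2 E2F words on opposite strands overlap by 4 bases, 110 bases before the start in Mcm6 and 153 bases before it in Mcm5, and Mcm6 has a further one 47 bases before the start. The members with an E2F word included ones that rose (Cdc6, Mcm3) and that were lower in cKO 2-cell embryos (Mcm5). In the main fit Mcm6, Mcm7 and Cdt1 passed limma's test in no comparison. For Mcm6 that held in 12 of 20 alternative settings between the WT stages and in 16 of 20 between the cKO stages. For Cdt1 it held in 19 of 20 between the cKO stages, where its log2 difference ranged from -0.15 to 1.14.

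Other genes of DNA replication, 64 in the table, were read by role beside the licensing genes. Between the WT stages 25 rose and 9 fell, against 34.2% and 15.5% of all genes. Between genotypes at the 2-cell stage 5 were higher and 16 lower in cKO embryos, against 6.16% and 24.6%. These counts lie near the background. In zygotes none passed the test between genotypes, which Usp16 itself did not pass. The medians of the list were -0.05 between the WT stages and -0.28 between genotypes at the 2-cell stage, against 0.27 and -0.30 over all genes. Without cKO 2-cell replicate 2, 8 were higher and 16 lower between genotypes, and 16 of the 21 calls remained. The lost calls were those of Fen1, Mcm9 (adjusted p = 0.0648), Cdk1 (0.119), Gins1 (0.104, with a log2 difference of 0.95 in place of 1.49) and Pold4 (0.0754). Of the changes between the cKO stages described below, that of Cul4b (0.0769) then missed the threshold.

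Of the 11 genes of origin recognition and loading, 3 rose and 4 fell between the WT stages, against 34.2% and 15.5% of all genes. Orc1, the largest origin recognition subunit, was at 17.0 and 20.0 in WT zygotes and 81.9 and 69.6 in WT 2-cell embryos, with 40.8 and 56.3 in cKO 2-cell embryos. Orc5 went the other way, from 378 and 391 in WT zygotes to 145 and 127 in WT and 52.7 and 73.0 in cKO 2-cell embryos, where the genotype difference was -1.12 on the log2 scale (adjusted p = 0.0140 by limma). Orc4 was at 41.4 and 45.9 in WT and 92.0 and 76.5 in cKO 2-cell embryos (log2 difference 0.93, adjusted p = 0.0134) and was the one gene of this group that was higher. Mcm9, an MCM paralogue that acts in repair, was the other one lower, at 5.54 and 8.47 against 2.56 and 2.06 (log2 difference -1.25, adjusted p = 0.0245). Orc2 (log2 difference 1.39) rose and Orc3 (-1.24) fell between the WT stages.

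Among the 10 genes of licensing control, which act through cyclin-dependent kinases and ubiquitin ligases, 7 rose and 1 fell between the WT stages, against 34.2% and 15.5% of all genes. Cyclin E1 (Ccne1) was at 3.97 and 3.16 in WT zygotes and 310 and 309 in WT 2-cell embryos (log2 difference 6.09, adjusted p = 1.39e-04 by limma), and at 378 and 189 in cKO 2-cell embryos. Its kinase Cdk2 was at 5.53 and 4.00 in WT zygotes, 90.1 and 78.4 in WT 2-cell embryos and 39.9 and 40.9 in cKO 2-cell embryos, lower between genotypes by a log2 difference of -1.04 (adjusted p = 0.0206). Ccne2 was also lower in cKO 2-cell embryos (29.0 and 34.5 against 16.1 and 14.4) and Cdk1 was higher (143 and 218 against 389 and 488, adjusted p = 0.0346). Ddb1, a subunit of the ligase for Cdt1, fell between the WT stages (log2 difference -0.63), and with Cul4b (-1.24) it also fell between the cKO stages (-0.98).

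Of the 13 origin firing genes, 5 rose between the WT stages and none fell, against 34.2% and 15.5% of all genes. The GINS subunit gene Gins3 was at 4.99 and 5.34 in WT zygotes, 21.5 and 17.8 in WT 2-cell embryos and 75.0 and 43.9 in cKO 2-cell embryos (adjusted p = 0.0128 between genotypes by limma), and Gins1 was higher in cKO embryos as well (37.1 and 25.5 against 60.3 and 129). Cdc45 rose between the cKO stages (62.6 and 56.5 against 259 and 229). Recql4 was at the floor of 1 in all 4 zygote libraries, at 5.43 and 5.72 in WT and at 2.08 and 2.50 in cKO 2-cell embryos. Mtbp (7.92 and 9.22 against 3.16 and 4.21) and Wdhd1 (16.6 and 15.3 against 8.69 and 4.73) were lower in cKO than in WT 2-cell embryos.

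Of the 23 fork elongation genes, 6 rose and 4 fell between the WT stages (34.2% and 15.5% of all genes), and 4 were lower and none higher in cKO 2-cell embryos (24.6% and 6.16% of all genes). Rpa2, of the single-strand binding complex, rose from 16.3 and 11.3 to 163 and 179 (log2 difference 3.56, adjusted p = 1.39e-04 by limma), while Rpa1 of the same complex fell from 41.3 and 37.0 to 11.6 and 11.3 (-1.69). The flap endonuclease gene Fen1 rose (4.50 and 2.21 against 30.1 and 34.7) and Rfc3, of the clamp loader that places Pcna on DNA, fell (log2 difference -2.35, adjusted p = 2.35e-04). DNA ligase 1 (Lig1) was at 9.24 and 8.02 in WT and 2.57 and 1.84 in cKO 2-cell embryos (log2 difference -1.59, adjusted p = 0.00543). Pold4 was listed at the floor of 1 in both cKO 2-cell libraries, against 5.36 and 3.04 in WT. Prim1 rose between the cKO stages (log2 difference 2.18).

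The E2F factors were the role with the lowest median at the 2-cell stage, -1.45 on the log2 scale between genotypes, and 5 of the 7 in the table were lower in cKO embryos and none higher, against 24.6% and 6.16% of all genes. E2f1, an activator, was at 22.2 and 18.1 in WT zygotes, 82.9 and 65.0 in WT 2-cell embryos and 27.7 and 28.6 in cKO 2-cell embryos. E2f4 was at 103 and 97.0 in WT and 41.3 and 17.6 in cKO 2-cell embryos, and E2f5 at 353 and 343 against 58.0 and 117. These factors act mainly as repressors with pocket proteins, and the log2 differences were -1.85 (adjusted p = 0.0154 by limma) and -2.06 (adjusted p = 0.00759). E2f8, an atypical repressor, was at 5.30 and 4.54 in WT 2-cell embryos and at the floor in both cKO 2-cell libraries, and E2f2 was at 5.55 and 6.39 against 2.24 and 1.00. The interaction of genotype and stage was called for 6 of the 64 genes, each lower (E2f5, E2f8, Lig1, Orc5, Ccne2 and Recql4), against 10.2% of all genes lower. Without cKO 2-cell replicate 2 the interaction was called for 5 higher and 11 lower, the 6 included, and in the whole table for 966 higher and 2615 lower.

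**Figure D4:**
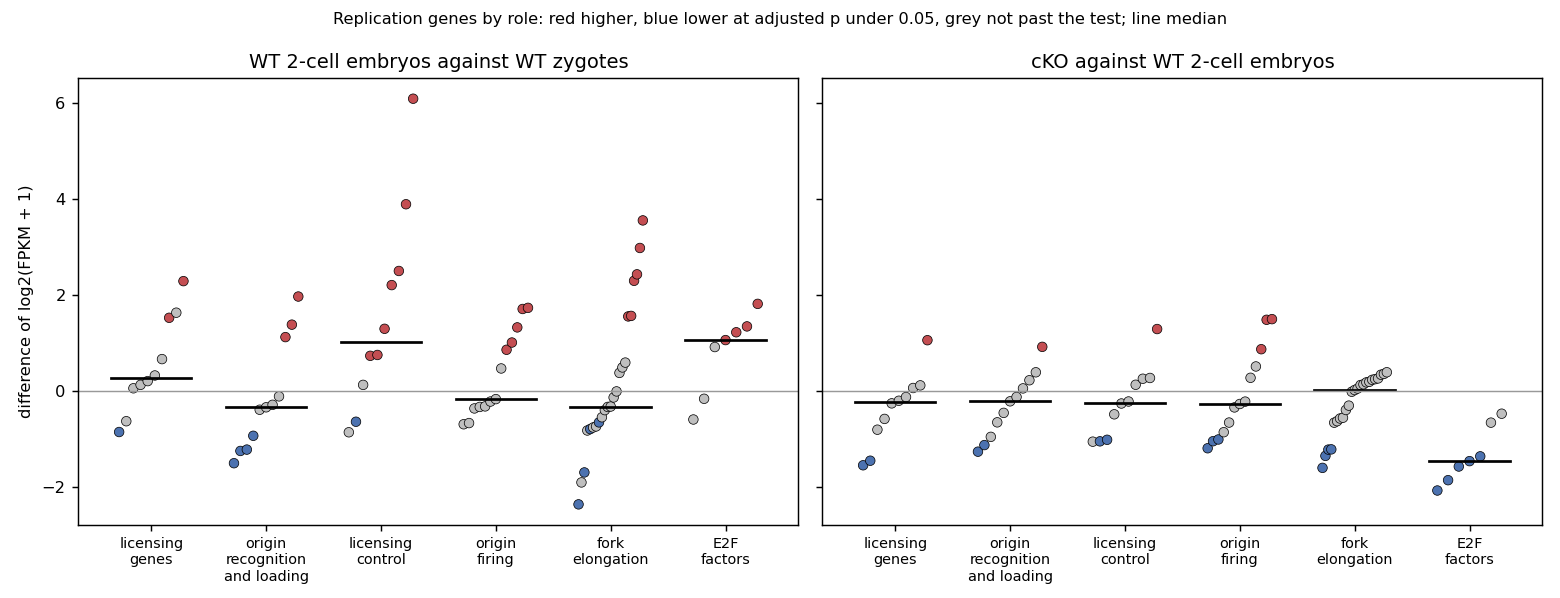
Difference of log2(FPKM + 1) (y axis) of each replication gene, grouped by role (x axis), between WT 2-cell embryos and WT zygotes on the left and between cKO and WT 2-cell embryos on the right; red and blue points are higher and lower at an adjusted p under 0.05 by limma and lines are group medians. On the right the E2F factors have a median of -1.45, and the licensing genes one of -0.22.

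The genes whose log2(FPKM + 1) profile over the 8 libraries was most like the mean profile of Mcm2 to Mcm7 were Dda1 (Pearson r = 0.9937), Mavs (0.9901) and Clic4 (0.9857), among 7862 candidates of mean FPKM 5 or more. The 8 points share 4 groups and the library that stood apart, and the likeness is a description only.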

How the data were processed

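The deposited table gave FPKM per gene in 8 libraries. Per the labels and the study's methods, the authors trimmed reads to 50 bases, mapped them to mm9 with Tophat 2.1.1, computed FPKM with Cufflinks 2.2.1, set values under 1 to 1 and dropped genes under 1 throughout. What "normalized" adds is not stated, and the annotation is not given in the sources used here. The floor hides the steps of single reads, so depth is unknown. Samples of 7 ChIP libraries were not analysed here.

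Here log2(FPKM + 1) was fitted with limma 3.58.1 in R 4.3.3 (trend, 4 groups in 1 model) and p-values were adjusted by Benjamini-Hochberg over 14392 genes at 0.05. Group means over 3-fold apart were the study's rule. The scripts were tested on simulated data. Promoter words were searched with Python 3.11.15. Alternatives covered pseudocounts, filters, scalings, spread per group, blocks and leaving out each library.

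The members, lists and tests were chosen with earlier results of these data known. Named were all members, Usp16, up to 2 other replication genes per comparison, role and direction with the largest called change, and the 3 genes with the profile most like Mcm2 to Mcm7. E2f3 had no row, and Kat7 and Ticrr were matched by older symbols, and Usp17lc as Usp17l5. Of the marker lists, Amh, Inhba, Inha, Fshr, Has2, Ptx3 and Tnp2 had no row.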

Additional observations from a re-analysis of the deposited data

Results flagged for a closer look

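The difference between cKO and WT embryos itself differed between zygotes and 2-cell embryos for 2 licensing genes, by limma's interaction term with Benjamini-Hochberg adjustment. For Mcm4 the interaction was -1.70 on the log2 scale (adjusted p = 0.0224), with a genotype difference of 0.26 in zygotes and -1.44 in 2-cell embryos, and both cKO 2-cell libraries were below every other library. For Mcm5 the interaction was -1.59 (adjusted p = 0.0462), with 0.05 in zygotes and -1.54 in 2-cell embryos, and again both cKO 2-cell libraries were the lowest. Relative to the median interaction of all genes they were -1.36 and -1.25. Without cKO 2-cell replicate 2 they were -1.48 and -1.32. Both calls ended when any 1 zygote library was left out (adjusted p from 0.0887 to 0.110 and from 0.112 to 0.177), and that of Mcm5 also without WT 2-cell replicate 1 (0.0879) or replicate 2 (0.0985).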

How the results depend on the processing

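No call of a licensing gene changed sign under any alternative. Over 990 refitted values of the members, 841 kept direction and side of the threshold, 72 lost it, 27 passed it newly, and 50 values not past the test in either fit changed sign.
For cKO against WT 2-cell embryos (1 higher, 2 lower by limma), 0 were higher with quantile normalization, with a spread per group and with the 4 libraries alone, and 1 and 0 were lower in the last of these settings (spread per group and 4 libraries alone). The 4 libraries alone gave 0 calls in the whole table (at an unadjusted p under 0.05, 819 genes were higher and 3416 lower). Leaving out 1 library gave 0 to 1 higher. For the WT stages (2 higher, 1 lower), 4 were higher with the 4 libraries alone and with the transcript length trend removed, 2 were lower with median-ratio scaling and the 4 libraries alone and 0 with sum scaling, and leave-outs gave 1 to 4 higher and 0 to 2 lower. For the cKO stages (3 and 3), 1 was higher with a spread per group, 1 higher and 1 lower with the 4 libraries alone, and leave-outs gave 1 to 5 higher and 1 to 4 lower. For the interaction (0 and 2), 1 was lower with median-ratio scaling, sum scaling, quantile normalization, a spread per group and either replicate block, and leave-outs gave 0 to 1 higher and 0 to 3 lower.
Of the other replication genes, 12 were called between genotypes at the 2-cell stage with quantile normalization (main 21), 2 with a spread per group and 0 with the 4 libraries alone, and leave-outs gave 12 to 35. Leave-outs gave 21 to 42 calls between the WT stages (main 34), and a spread per group gave 20 between the cKO stages (main 34). For the interaction (main 6), 2 were called with quantile normalization and with a spread per group, 12 without a trend and 3 with the replicate block, and leave-outs gave 0 to 16.
By the 3-fold rule at the 2-cell stage (0 higher, 1 lower), a 2-fold threshold gave 1 higher and 2 lower, every library past 3-fold and a pseudocount of 1 gave 0 lower, median-ratio scaling gave 1 higher and 0 lower, sum scaling gave 2 lower, and leave-outs gave 0 to 2 lower. Between the WT stages (3 higher) 1 was higher with every library past 3-fold and with median-ratio scaling, and leave-outs gave 1 to 3. The cause was not tested.
Replicate numbers are shared by the groups, with 2 pairs and correlations of deviations of 0.50 between genotypes in zygotes and -0.24 at the 2-cell stage, so they are not shown to pair the samples. With the replicate block the interaction of Mcm5 had an adjusted p of 0.0535 and that of Mcm4 0.0427, and genotype calls at the 2-cell stage went from 887 higher and 3538 lower to 780 and 3348. Crossing the numbers of the cKO 2-cell libraries in the block gave 932 and 3540. Pools of 2 libraries per group and the unknown depth limit all values.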
